A study of Mus musculus with 8 samples.

Results

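Olfactory receptor (Olfr) genes made up 272 of the 3888 genes that were named as nearest to a Klf6 peak in 4 chromatin immunoprecipitation and sequencing (ChIP-seq) samples. They were taken by symbol alone: every gene whose symbol starts with Olfr was included, pseudogenes too, at any distance listed between the peak and the gene's transcription start site (TSS). The lists reach 50 kb before and 5 kb after a TSS, and an upstream distance is written with a minus sign. By RefSeq annotation 269 of the 272 genes are protein-coding and 2 are transcribed pseudogenes, and 1 symbol could not be matched.

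The samples were 2 biological replicates, A and B, of primary oligodendrocyte progenitors (OLP) from C57BL/6 mice, and 2 of immature oligodendrocytes (iOL). All were first grown with PDGF-AA and bFGF, mitogens that keep progenitors dividing. OLP received no further treatment. By the study's methods, iOL were then moved to differentiation medium with triiodothyronine (T3), a hormone that promotes oligodendrocyte differentiation. T3 was given at 40 ng/ml for 18 h. Every ChIP sample was precipitated with the same rabbit polyclonal antibody against Klf6 and compared with input chromatin of the same stage, for which there is no separate peak list.

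Olfactory receptors are seven-transmembrane, G protein-coupled receptors that detect odorants in sensory neurons of the nose. Their genes form the largest gene family of the mouse and lie in clusters on most chromosomes. Each sensory neuron expresses a single allele of a single receptor gene, while the remaining copies are silent in that neuron and in most other tissues. Klf6 is a zinc finger transcription factor of the Krüppel-like family, whose members recognise GC-rich sequence such as CCACCC and CCGCCC. Clusters of receptor genes are also rich in long interspersed elements of the LINE-1 (L1) type, retrotransposons that carry 2 open reading frames and exist in a great number of mostly partial copies.

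The lists held between 5777 peaks (iOL B) and 12451 peaks (OLP A), with 105081 to 152149 tags, that is sequenced fragments, inside them. Between 1242 and 2744 peaks per sample carried a gene name. The number of aligned reads per sample is not given in the sources used here, and tags were not scaled between samples. Peaks test no cell identity. As a check of the labels, Pdgfra and Olig1 were the only 2 of 5 progenitor markers with a peak, each in OLP B. None of 5 markers of differentiating oligodendrocytes and none of 4 markers of olfactory neurons (Omp, Gnal, Adcy3, Cnga2) had a peak in any sample. At the 10.4% of all annotated genes that had a peak, lists this short could hold none, so these counts check little.

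Most peaks near Olfr genes lay in copies of a repeated element. The peaks of the 6 genes below are shown because they were found in all 4 samples and are among those that kept the largest fold enrichment in the sample where it was lowest. Each is the OLP A peak in mm9 (NCBIM37), read 5′ to 3′ on the plus strand. Capitals mark the bases that align to the element described after them.
Olfr1271, chr2:90117409-90117605: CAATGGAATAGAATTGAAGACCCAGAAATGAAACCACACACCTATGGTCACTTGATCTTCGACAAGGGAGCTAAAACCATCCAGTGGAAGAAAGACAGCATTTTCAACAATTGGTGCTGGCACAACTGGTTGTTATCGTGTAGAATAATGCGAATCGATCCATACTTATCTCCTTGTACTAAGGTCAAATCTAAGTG
Olfr948, chr9:39162620-39162804: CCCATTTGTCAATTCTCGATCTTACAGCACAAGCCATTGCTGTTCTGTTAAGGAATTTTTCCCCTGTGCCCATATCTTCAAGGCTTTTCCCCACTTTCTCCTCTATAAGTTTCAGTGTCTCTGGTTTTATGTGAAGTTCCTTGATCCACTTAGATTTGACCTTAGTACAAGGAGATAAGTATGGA
Olfr535, chr7:147659706-147659891: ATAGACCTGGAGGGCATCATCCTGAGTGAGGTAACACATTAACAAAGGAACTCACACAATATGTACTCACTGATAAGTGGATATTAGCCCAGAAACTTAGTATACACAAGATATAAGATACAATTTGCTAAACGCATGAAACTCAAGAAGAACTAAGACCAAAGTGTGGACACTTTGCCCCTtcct
Olfr417, chr1:176291414-176291572: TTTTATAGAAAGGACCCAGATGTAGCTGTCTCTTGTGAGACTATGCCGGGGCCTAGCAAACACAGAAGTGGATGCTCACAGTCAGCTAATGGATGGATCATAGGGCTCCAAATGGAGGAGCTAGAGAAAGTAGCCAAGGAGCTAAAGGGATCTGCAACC
Olfr418-ps1, chr1:175188979-175189177: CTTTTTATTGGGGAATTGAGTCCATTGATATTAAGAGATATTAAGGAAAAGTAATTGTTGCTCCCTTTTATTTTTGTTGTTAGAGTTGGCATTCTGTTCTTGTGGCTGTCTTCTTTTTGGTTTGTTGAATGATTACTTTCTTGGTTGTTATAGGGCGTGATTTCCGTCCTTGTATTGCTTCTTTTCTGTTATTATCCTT
Olfr1330, chr4:118551560-118551703: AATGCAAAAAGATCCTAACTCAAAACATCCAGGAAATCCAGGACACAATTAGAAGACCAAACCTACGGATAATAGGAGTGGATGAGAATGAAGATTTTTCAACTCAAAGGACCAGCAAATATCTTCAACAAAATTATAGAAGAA

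The element was found from the peaks themselves. Windows of 6 kb around the places with an Olfr peak in all 4 samples were tried, and the one matching the most places was kept. That window, near Olfr711, matched 290 of the 398 places with an Olfr peak. The copy of its sequence that was nearest to an Olfr peak and had intact reading frames was taken as the model. It lies at chr10:78403326-78409728 on the plus strand, and a peak assigned to Olfr8 overlaps it. The 6403 bases hold an open reading frame of 377 codons followed by another of 1281 codons, the layout of a mouse L1. No repeat annotation was used, so it is called L1-like here. The genome holds 15991 alignments of at least 4000 bases to that window. Among the printed peaks, those of Olfr1271 and Olfr948 share 39 positions of the element, although the genes lie on different chromosomes. The Olfr418-ps1 peak crosses from the first frame into the second, the Olfr1330 peak lies in the first, and the Olfr417 peak lies beyond the second. The sources used here do not say how reads that align equally well to several copies were placed, and its part in these peaks was not tested.

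A smaller group of peaks lay in simple tandem repeats. The 2 peaks below, again from OLP A, show a tetranucleotide and a pentanucleotide run, which are in capitals. Olfr1193 had a peak at this place in all 4 samples and Olfr854 in 3, and they were chosen after their values were seen.
Olfr1193, chr2:88474634-88474704: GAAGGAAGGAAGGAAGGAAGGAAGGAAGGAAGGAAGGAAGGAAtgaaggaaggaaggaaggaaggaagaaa
Olfr854, chr9:19379876-19380018: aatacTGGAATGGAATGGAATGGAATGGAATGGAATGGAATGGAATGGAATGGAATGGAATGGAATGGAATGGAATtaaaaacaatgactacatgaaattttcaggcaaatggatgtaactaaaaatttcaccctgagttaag

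Few peaks of any gene lay at its start. Of 687 Olfr peaks in the 4 lists, 2 (0.291%) lay within 500 bp of the listed TSS, against 98 of 7855 named peaks of all genes (1.25%). Both were in OLP B, where they were 1.39% of Olfr peaks against 1.93% for other genes. The Olfr1097 peak, at 255 bp downstream, overlapped an annotated exon of that gene and had 10 tags and 7.88-fold enrichment. The Olfr291 peak, at 420 bp upstream (-420 bp), had 15 tags and 9.01-fold enrichment. Neither had a peak within 500 bp in another sample, and neither aligned to the element, so no base is in capitals.
Olfr1097, chr2:86732025-86732172: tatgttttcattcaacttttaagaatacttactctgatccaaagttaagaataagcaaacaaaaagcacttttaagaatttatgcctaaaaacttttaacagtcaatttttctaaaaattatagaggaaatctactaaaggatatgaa
Olfr291, chr7:92001529-92001748: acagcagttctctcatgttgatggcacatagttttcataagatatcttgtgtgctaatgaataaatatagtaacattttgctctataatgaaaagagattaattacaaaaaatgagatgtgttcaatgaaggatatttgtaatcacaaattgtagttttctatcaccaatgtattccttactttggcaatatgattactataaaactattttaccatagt

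The first question was how many Olfr genes had a peak, and in which samples. Olfr genes with a peak numbered 174 of 2080 genes in OLP A, 126 of 1420 in OLP B, 152 of 1776 in iOL A and 107 of 1099 in iOL B. Of the 1249 Olfr genes in the GENCODE annotation, 271 (21.7%) had a peak in at least 1 sample. Over all 33924 annotated genes the share was 10.4%. Olfr genes are 3.68% of annotated genes, but the territory within the listed range of their starts was 29.3 Mb, or 2.6% of the range of all genes.

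Olfr peaks numbered 222 in OLP A, 144 in OLP B, 191 in iOL A and 130 in iOL B. As a share of the peaks with a gene name these were 8.09% (95% Wilson interval 7.13 to 9.17), 8.74% (7.47 to 10.2), 8.6% (7.5 to 9.83) and 10.5% (8.88 to 12.3). The intervals cover counting error only, and all 4 overlap. The mean number of Olfr genes was 150 ± 33.9 in OLP and 129.5 ± 31.8 in iOL (SD, n = 2 each). The difference of 20.5 genes was smaller than the spread between replicates (exact two-sided permutation test, p = 0.67, where the smallest p that 2 against 2 allows is 0.33). The Olfr share of named peaks was 1.11 percentage points lower in OLP than in iOL, with the same exact permutation p of 0.67. Both values moved with single libraries, and the difference in genes also changed sign. The difference in genes was -3.5 without OLP A and -2.0 without iOL B, but 44.5 without OLP B and 43.0 without iOL A. The difference in share stayed negative whichever library was left out, from -0.179 points without iOL B to -2.05 without iOL A. In each stage replicate A listed more Olfr genes than replicate B. The lists of A also reached down to peaks of 7 tags, whereas the smallest Olfr peak had 9 tags in OLP B and 10 in iOL B.

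Of the 272 genes, 48 (17.6%) had a peak in all 4 samples, 42 in 3, 59 in 2 and 123 (45.2%) in only 1. Among all genes with a peak, 9.0% were listed in all 4 samples and 63.9% in only 1. The combinations with most genes were OLP A alone (53), all 4 samples (48), iOL A alone (34) and OLP B alone (25). Genes listed in both replicates of a stage and in neither of the other were few. There were 12 such genes in OLP (4.41% of Olfr genes, against 3.29% of all genes with a peak) and 7 in iOL (2.57% against 1.72%).

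**Figure D1:**
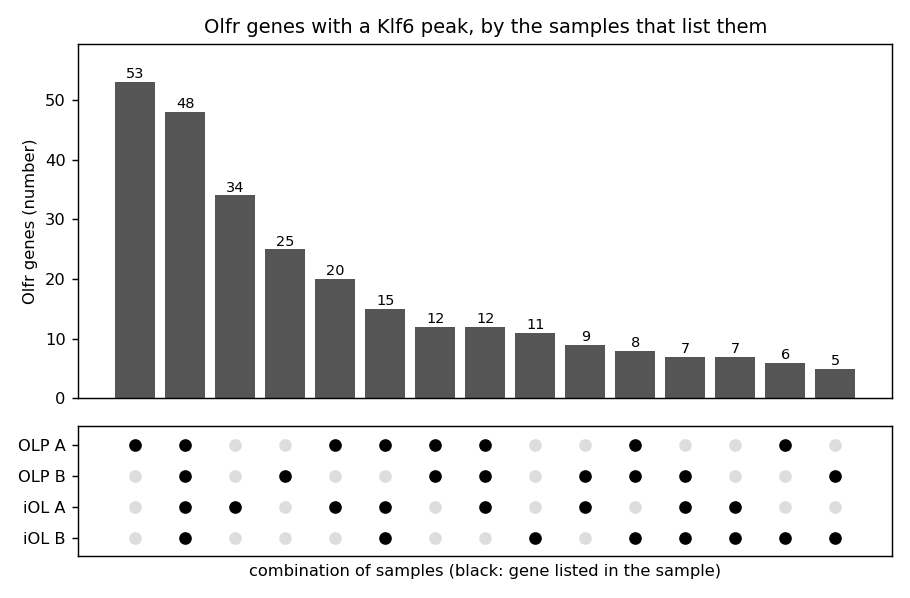
Number of Olfr genes (vertical axis) for each combination of the 4 samples that list a peak for them (black dots below each bar). The tallest bars are OLP A alone, with 53 genes, and all 4 samples, with 48, while the combinations of both OLP or both iOL replicates alone hold 12 and 7.

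The Olfr genes shared by pairs of the same stage, 80 and 77, lay within the range of the pairs across stages, 68 to 95. As a share of the genes listed in either sample, the overlap of Olfr genes was 0.364 (OLP) and 0.423 (iOL) within stages and 0.376 to 0.412 across them. Over all genes it was 0.237 and 0.267 within stages and 0.229 to 0.308 across them. The 80 genes of the OLP pair are 46.0% of the OLP A list and 63.5% of the OLP B list, and the 77 of the iOL pair are 50.7% and 72.0% of theirs. Across stages, OLP A and iOL A shared 95 genes (54.6% and 62.5%), and OLP B and iOL B shared 68 (54.0% and 63.6%). The unpaired combinations gave 77 for OLP A with iOL B (44.3% and 72.0%) and 76 for OLP B with iOL A (60.3% and 50%).

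Among the 12 genes found only in OLP, Olfr853, Olfr209 and Olfr988 had the most tags. Olfr853 had 2 peaks in OLP A, with 7 and 13 tags, and 3 in OLP B, with 10, 13 and 11 tags. Its first peak was at -10641 bp in replicate A and at -10643 bp in replicate B, the same place. For Olfr209 the 2 OLP A peaks, at -12928 bp (10 tags) and -13912 bp (7 tags), and the OLP B peak, at -15252 bp (20 tags), lay at different places, and none had a counterpart within 500 bp in any other sample. Olfr1136, Olfr171 and Olfr290 each had a single peak per OLP replicate at the same place, with 9 and 15, 7 and 14, and 7 and 14 tags. All peaks named here except 2 of Olfr988 in OLP B aligned fully to the L1-like element.

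Of the 7 genes found only in iOL, Olfr361, Olfr476, Olfr707 and Olfr390 had a peak at the same place in both replicates. The Olfr707 peak, at -2186 bp in iOL A and -2182 bp in iOL B, had 12 and 11 tags. The Olfr476 peak, at -2938 and -2930 bp, had 11 and 13 tags. Olfr361, the gene of the group with the most tags after summing, had peaks outside the element at -12669 bp in iOL A (7 tags) and -12677 bp in iOL B (14 tags). Olfr1251, Olfr749 and Olfr525 were listed in both iOL replicates through peaks at different places. These counts of 7 to 20 tags sit close to the smallest peak of each list, so a gene missing from a list was not shown to lack signal there.

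The genes listed in all 4 samples were mostly marked at the same place each time. At least 1 place with a peak in every sample was found for 38 of the 48. The other 10, among them Olfr1305, Olfr1242 and Olfr1253, were listed in every sample without such a place. Merging peaks at most 500 bp apart gave 398 places over the 272 genes, of which 41 had an Olfr peak in all 4 samples, 40 in 3, 70 in 2 and 247 in 1.

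The strongest of these genes were Olfr1154, Olfr535, Olfr418-ps1, Olfr1271 and Olfr948. Olfr535 (chromosome 7) had 22 tags in OLP A, 23 in OLP B, 23 in iOL A and 32 in iOL B, at -18790 to -18784 bp. Its fold enrichment was 43.75, 23.65, 49.62 and 28.54 in that order. Fold enrichment was higher in the A samples than in the B samples at this place, and the stages overlapped.

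Olfr418-ps1, a pseudogene by its symbol on chromosome 1, had 25 tags in OLP A, 28 in OLP B, 13 in iOL A and 32 in iOL B at about -11150 bp. The fold enrichments were 48.62, 28.16, 29.77 and 22.86. Olfr1271 (chromosome 2) had 17, 21, 11 and 27 tags and fold enrichments of 38.89, 22.08, 27.29 and 27.48. For both genes iOL A had the fewest tags and iOL B the most, so the 2 iOL samples enclosed both OLP samples.

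Olfr948 (chromosome 9) had 20 tags in OLP A, 24 in OLP B, 23 in iOL A and 28 in iOL B, at about -35472 bp. Its fold enrichments were 46.19, 25.91, 53.87 and 19.53. Olfr1154 (chromosome 2) had the most peaks of any Olfr gene in a sample, with 5 in OLP A, 4 in OLP B, 3 in iOL A and 5 in iOL B. Peaks near -4073 and -7149 bp recurred in every sample, and the former held 17, 28, 15 and 27 tags. At that place the B samples held more tags than the A samples in both stages.

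A few recurrent genes had their peak downstream of the TSS. Olfr503 (chromosome 7) had peaks at 4213 to 4218 bp in OLP A (16 tags), OLP B (17 tags), iOL A (20 tags) and iOL B (31 tags). In OLP A a second peak at -25611 bp, with 7 tags, had the larger fold (16.32 against 14.65). Olfr1084 (chromosome 2) had 22, 21, 11 and 22 tags in OLP A, OLP B, iOL A and iOL B, at 4042 to 4046 bp. The largest tag count of any Olfr peak, 52 in OLP B near Olfr161 at -45845 bp, had only 5.57-fold enrichment and no counterpart in another sample.

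**Figure D2:**
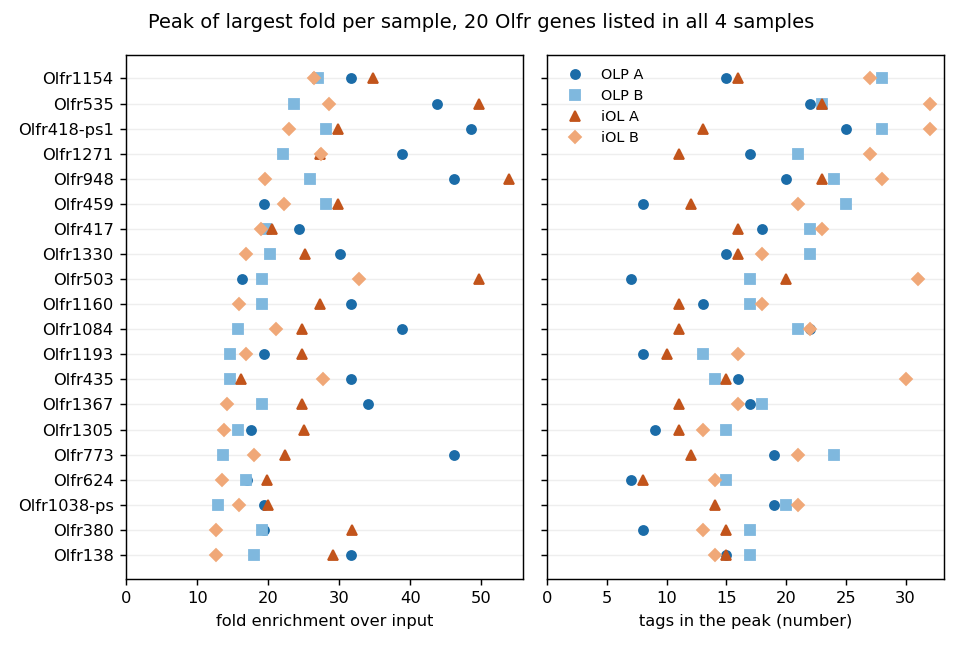
Fold enrichment over input (left) and tags (right) of the peak with the largest fold in each sample, for the 20 Olfr genes listed in all 4 samples whose lowest fold was largest, with samples in different symbols. Fold enrichment was often higher in the A samples (Olfr535: 43.75 and 49.62) than in the B samples (23.65 and 28.54), and OLP and iOL symbols intermix.

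Across the 41 places found in every sample, tags ran from 7 to 25 in OLP A, from 10 to 28 in OLP B, from 7 to 23 in iOL A and from 11 to 32 in iOL B. Their medians were 15, 17, 12 and 16. As a description across places, which are not replicates, Spearman's rho of the tags was 0.61 between the OLP replicates and 0.34 between the iOL replicates. Across stages it ran from 0.31 (OLP B with iOL A) to 0.67 (OLP B with iOL B). The places share libraries and mostly the same repeated sequence.

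The next question was whether Olfr peaks recurred between replicates as often as other peaks. A counterpart in the other replicate, at most 500 bp away, existed for 73 of 222 Olfr peaks in OLP A (32.9%, 95% Wilson interval 27.0 to 39.3) and 70 of 144 in OLP B (48.6%, 40.6 to 56.7). In iOL A there were 82 of 191 (42.9%, 36.1 to 50), and in iOL B 80 of 130 (61.5%, 53.0 to 69.5). Over all named peaks the shares were 20.9%, 34.1%, 25.9% and 45.3% in the same order. For genes other than Olfr they were 19.9%, 32.7%, 24.3% and 43.4%. The Olfr share was higher in 4 of 4 samples, by 16.4 ± 2.56 percentage points (SD, n = 4). An exact two-sided sign-flip permutation test over the samples gave p = 0.125, the smallest it can give, and 0.31 after Benjamini-Hochberg adjustment over the 15 tests made, so the threshold of 0.05 could not be reached. A match counts for both replicates of a stage, so the 4 values come from 2 replicate pairs, with mean differences of 14.5 points in OLP and 18.4 in iOL. Sign flips over 2 pairs cannot give a p below 0.5, and the p of 0.125 treats the samples as separate.

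This difference moved with the element. An L1-like match was counted when at least 50% of a peak's bases aligned to the element. Such peaks were 80.6% of Olfr peaks in OLP A, 75.0% in OLP B, 80.6% in iOL A and 85.4% in iOL B. For other genes they were 51.1%, 50.5%, 53.0% and 60.9%. The element was chosen for matching the most places with an Olfr peak, so this comparison is not independent of that choice. Among matching peaks alone, 38.0%, 60.2%, 49.4% and 66.7% of Olfr peaks recurred in the other replicate, against 32.2%, 54.1%, 38.4% and 60% for other genes. The difference fell to 7.36 ± 2.4 points, still higher in 4 of 4 samples (exact sign-flip permutation p = 0.125). Among peaks that did not match it was 7.4 ± 4.76 points, from 43 Olfr peaks in OLP A, 36 in OLP B, 37 in iOL A and 19 in iOL B. With all peaks of mainly repeated sequence left out, of the element or not, the difference was 1.53 points. The peaks kept there still include tandem runs, such as that near Olfr854 (37.5% repeated in OLP A), which was found in both OLP replicates.

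**Figure D3:**
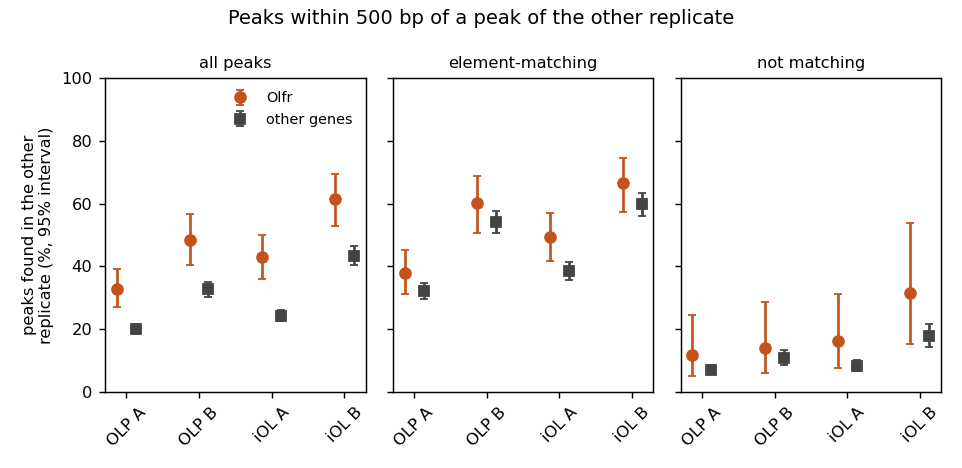
Percent of peaks with a counterpart at most 500 bp away in the other replicate (vertical axis) for Olfr genes (circles) and other genes (squares) in the 4 samples, over all named peaks, L1-like peaks and the rest, with 95% Wilson intervals as bars. Over all peaks the Olfr values of 32.9% to 61.5% lie above the other genes' intervals, and within the L1-like peaks and the rest the intervals overlap in most samples.

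The 687 Olfr peaks fell into 4 kinds of sequence. L1-like peaks numbered 552 (80.3%), and peaks with a tandem run of at least 24 bases 25 (3.64%). Of the rest, 64 (9.32%) were made mainly of repeated sequence and 46 (6.7%) mainly of unique sequence. Repeated means that over 50% of a peak's 32-base stretches occur elsewhere in the genome. Of the L1-like peaks 283 (51.3%) recurred in the other replicate, of the tandem peaks 12 (48.0%) and of the other repeated peaks 10 (15.6%). Of these 46 unique peaks 0 did, which allows a share of up to 6.52% (3 counts) by counting error alone. Mainly unique peaks that matched the element or held a tandem run were counted in those classes instead. Among them was the Olfr854 peak (37.5% repeated in OLP A), which was found in both OLP replicates. Peaks of other genes also recurred more often in the element (32.2% to 60% by sample) than outside it (6.97% to 17.7%). A tandem run, in the element or not, was held by 5.35% of other genes' peaks in OLP A and 3.06% in OLP B. The shares were 6.3% in iOL A and 3.69% in iOL B. For Olfr peaks they were 4.05%, 3.47%, 4.19% and 2.31% in the same order, lower in every sample except OLP B. Recurrence within the finer classes and the shares by place were not computed for other genes. By place, the L1-like share was 156 of 247 places seen in 1 sample (63.2%), 59 of 70 seen in 2 (84.3%), 37 of 40 seen in 3 (92.5%) and 38 of 41 seen in all 4 (92.7%). The windows tried for the element came only from places found in all 4 samples, so these shares are not independent of that choice. The 3 places seen in all 4 samples without the element were near Olfr1160 and Olfr1193, both tandem repeats, and Olfr1054.

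Tandem peaks included the largest fold enrichment of any Olfr gene. The peak near Olfr854 on chromosome 9, at about -8093 bp, had 27 tags and 63.2-fold enrichment in OLP A, 25 tags and 24.78-fold in OLP B, and 32 tags and 74.43-fold in iOL A. It was not listed in iOL B. The Olfr1193 peak had 8, 13, 10 and 16 tags in OLP A, OLP B, iOL A and iOL B, with fold enrichments of 19.45, 14.64, 24.81 and 16.91. The Olfr1160 peak had 10, 17, 11 and 18 tags in the same order, with fold enrichments of 24.31, 19.15, 27.29 and 15.86. No stage stood apart at these places.

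Over all Olfr peaks, tags differed little from those of other genes. The lowest, median and highest tags were 7, 9 and 27 in OLP A, 9, 12 and 52 in OLP B, 7, 8 and 32 in iOL A, and 10, 13 and 32 in iOL B. Other genes had medians of 8, 12, 8 and 13 tags, and maxima of 692 to 3300. The mean difference in medians was 0.25 ± 0.5 tags (exact sign-flip permutation p = 1.0), with 1 sample higher and 3 equal.

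Median fold enrichment was 16.88, 10.14, 17.37 and 11.63 for Olfr peaks in OLP A, OLP B, iOL A and iOL B, against 14.28, 9.01, 14.55 and 10.57 for other genes. It was higher in 4 of 4 samples, by 1.9 ± 0.938 (exact sign-flip permutation p = 0.125, adjusted 0.31). Among L1-like peaks alone the difference was 0.147 ± 0.251, with 2 samples higher and 2 equal (exact permutation p = 0.5). Among peaks that did not match the element it was 0.625 ± 0.998, with 3 samples higher and 0 lower (exact sign-flip permutation p = 0.25). The Olfr peaks were richer in repeated sequence in 4 of 4 samples, at 93.7%, 85.4%, 93.7% and 92.3% against 85.3%, 67.3%, 86.5% and 79.9% (mean difference 11.5 ± 4.94 points, exact permutation p = 0.125). Their median GC content was lower in 4 of 4 samples, with differences of -1.05, -0.303, -1.08 and -2.34 percentage points and the same exact permutation p.

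The core motifs CCACCC and CCGCCC were searched on both strands within 100 bases of each summit. They were found at 8 of 222 Olfr peaks in OLP A (3.6%), 3 of 144 in OLP B (2.08%), 4 of 191 in iOL A (2.09%) and 8 of 130 in iOL B (6.15%). Over all named peaks the shares were 5.83%, 4.98%, 5.9% and 8.29%. Of the places found in all 4 samples, those of Olfr1193 and Olfr1233 held a match, and of those found in 3, that of Olfr1101. A match is a description of the sequence only.

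Along the element, Olfr peaks lay mostly in the second reading frame. By the midpoint of the alignment 389 of the 552 peaks with a direct alignment (70.5%) lay there, 112 (20.3%) in the first frame, 47 (8.51%) beyond the second, 2 between the frames and 2 before the first. Peaks of other genes gave 71.5%, 16.8% and 10.1% for the first 3 of these. Of all element bases aligned in the genome, 61.1% lay in the second frame, 12.2% in the first and 23.0% beyond the second. Of those aligned in the listed range of Olfr starts, the shares were 64.4%, 13.1% and 19.0%. Median identity to the model copy was 95.7% to 96.0% in the 4 samples. The element ran in the direction of the Olfr gene in 51.7%, 52.8%, 51.0% and 50.9% of aligned peaks in OLP A, OLP B, iOL A and iOL B.

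**Figure D4:**
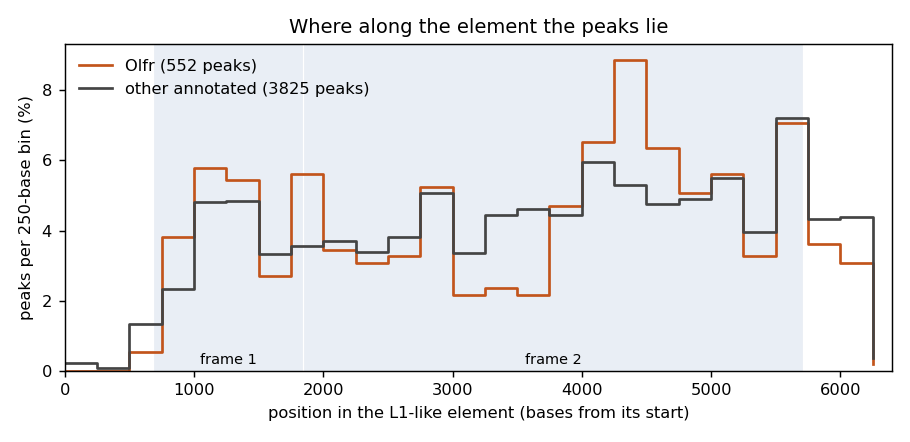
Percent of element-aligned peaks (vertical axis) per 250-base bin of the L1-like element (horizontal axis, in bases from its start), over the 4 samples, for 552 Olfr peaks and 3825 peaks of other genes, with both reading frames shaded. Both curves spread over the 2 frames, with 70.5% of Olfr peaks in the second.

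Territory around Olfr genes holds more of this element than the genome. The element matched 22.6% of the bases in the listed range of Olfr starts, 30.6% in that of vomeronasal receptor (Vmn1r, Vmn2r) starts, 8.14% around other genes only and 10.7% of the genome. With all peaks counted by position, named or not, the Olfr range held 8.36 peaks per Mb in OLP A, 5.18 in OLP B, 7.16 in iOL A and 4.67 in iOL B. The genome held 4.87, 3.06, 4.0 and 2.26. The ratio was 1.72, 1.69, 1.79 and 2.07. Counted per Mb of element-matching sequence, L1-like peaks numbered 29.8, 17.4, 25.7 and 17.4 in the Olfr range against 30.1, 18.6, 25.7 and 16.6 in the genome, ratios of 0.99, 0.935, 1.0 and 1.05. Peaks outside the element, per Mb of the remaining sequence, gave ratios of 1.15, 1.37, 1.27 and 1.81, from 48, 37, 40 and 22 peaks in the Olfr range.

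The clusters of Olfr genes differed in how many peaks they held. With at most 1 Mb between neighbours, the annotated genes formed 52 clusters, of which 36 had an Olfr peak and 16 held at least 20 genes. The largest, chr2:85171054-90241831, had 54 of 268 genes with a peak and 42, 31, 41 and 33 peaks in OLP A, OLP B, iOL A and iOL B. It held 12 of the 41 places found in all 4 samples. The chromosome 7 cluster of class I receptors, the type shared with fish, lies at chr7:109625287-112517869. It had 23 of 145 genes with a peak, 19, 12, 10 and 8 peaks, and 2 such places. Its neighbour at chr7:113821048-116037934, a cluster of 67 genes, had 17, 15, 17 and 16 peaks and 6 places.

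By chromosome, 77 of the 349 annotated Olfr genes of chromosome 2 had a peak (22.1%), 53 of 261 on chromosome 7 (20.3%), 34 of 135 on chromosome 9 (25.2%) and 13 of 103 on chromosome 11 (12.6%). The X chromosome had the highest share among chromosomes with at least 5 such genes, at 5 of 8 (62.5%), from 3, 3, 2 and 1 peaks in OLP A, OLP B, iOL A and iOL B.

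Some clusters varied between samples. The 38-gene cluster at chr9:18559100-20140538 had 16 and 9 peaks in OLP and 3 and 5 in iOL, the widest separation of stages among the 16 and chosen after its values were seen. None of its 20 places was found in all 4 samples. The chr14:50513935-53115370 cluster had 12, 2, 8 and 7 peaks, with the lowest and highest values both in OLP. For the density of peaks, all peaks inside a cluster were counted by position, whether named for an Olfr gene, another gene or none. Over the 16 clusters, Pearson's r between the share of bases matching the element and the mean number of these peaks per Mb was 0.65 (Spearman's rho 0.52), a description across clusters that share libraries and sequence. The extremes were chr2:36140548-37188253, with 40.9% element and 9.31 peaks per Mb, and chr11:58268417-59427727, with 4.73% and 1.51. The chromosome 19 cluster had 20.2% element but only 1.91 peaks per Mb.

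**Figure D5:**
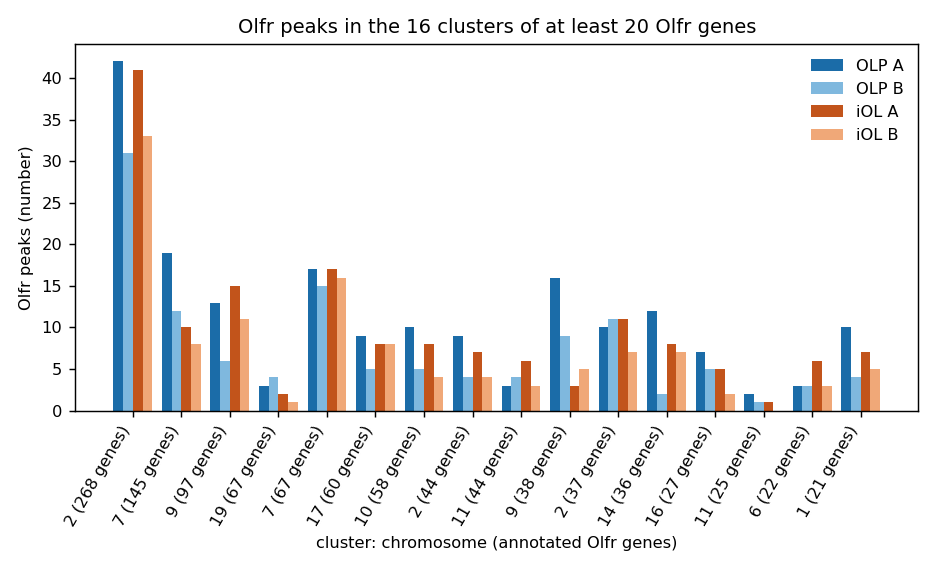
Number of Olfr peaks (vertical axis) in each sample (colours) for the 16 clusters of at least 20 annotated Olfr genes, labelled by chromosome and gene number and ordered by size. The 268-gene cluster on chromosome 2 holds 31 to 42 peaks per sample, and the 38-gene cluster on chromosome 9 holds 16 and 9 in OLP against 3 and 5 in iOL.

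Most Olfr peaks lay outside annotated transcripts. Of the 687 peaks, 675 overlapped no annotated transcript, 9 lay in introns and 3 in exons, among them exons of Olfr1097 and Olfr1472. Overlap with transcripts was not computed for peaks of other genes, so these counts are not a trait of Olfr genes. The median distance to the listed TSS was -13541 bp in OLP A, -15843.5 bp in OLP B, -12993 bp in iOL A and -14704.5 bp in iOL B, and that of other genes ran from -21292 to -19847 bp. More than 1 Olfr gene lay in range of 422 of the peaks (61.4%), with up to 6 genes for a single peak, so the name of the nearest gene is often 1 of several possible. A peak in the narrower range of 15 kb before to 5 kb after the TSS was listed for 111, 66, 93 and 60 Olfr genes in OLP A, OLP B, iOL A and iOL B. Peaks over 15 kb upstream numbered 93, 74, 80 and 63, peaks 5 to 15 kb upstream 103, 49, 85 and 45, and peaks more than 500 bp downstream 15, 8, 14 and 12.

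Other receptor families and the odour pathway were read the same way. Vomeronasal receptors, which detect pheromones, had 158 genes with a peak, and 65.9% (OLP A), 69.5% (OLP B), 75.0% (iOL A) and 91.7% (iOL B) of their peaks were L1-like. In the same order, 97.8%, 88.6%, 98.3% and 94.4% were mainly repeated sequence, more than for Olfr peaks. A counterpart in the other replicate existed for 26.4%, 42.9%, 35.3% and 58.3%, between the shares of Olfr and other genes. The Vmn range held 14.5, 7.87, 9.44 and 5.39 peaks per Mb, more than the Olfr range. These traits were thus not particular to Olfr genes. No trace amine-associated receptor (Taar), a small family, had a peak in any list. Of 23 genes for odour signalling and receptor choice, such as Gnal, the olfactory G protein subunit, Adcy3, the adenylyl cyclase it activates, and Lhx2 and Ebf1, transcription factors of the sensory neuron, 0 had a peak, where 10.4% of all annotated genes did. Lists of this size are too short to be read as lacking peaks.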

How the data were processed

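Peak lists of 4 Klf6 ChIP samples were analysed. According to the study's methods and the submitters' processing notes, the authors called bases with CASAVA 1.8, kept reads of high quality and used Bowtie2 for alignment to mm9. MACS then called peaks, 1 sample at a time against input, and RefSeq transcripts supplied the gene names. The MACS version and the treatment of reads that align to several places are not given in the sources used here. How such reads were placed can change peaks in repeated sequence. The deposited lists give raw counts of tags, the fold enrichment over background as a ratio, the MACS score (the p-value on a -log10 scale, times 10) and the false discovery rate in percent.

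The members and lists were chosen with earlier results of these data known, and the L1-like element, its seed and its thresholds were chosen after seeing the data. Genes were named by fixed rules: genes listed in all 4 samples in order of their lowest fold enrichment, genes listed in both replicates of 1 stage only by summed tags, the 3 peaks per sample with most tags and largest fold, peaks within 500 bp of a TSS, genes with most peaks, and every pathway gene with a peak. Peak sequences were printed for the first 8 genes listed in all 4 samples, of which 2 are not reported here. Peaks at most 500 bp apart were called the same place. Sequence was read from NCBIM37, the same build as mm9, with GENCODE genes, and 0 peaks extended past a chromosome end. RefSeq gene types came from GRCm38.p6 by symbol. BLAST 2.17.0 found matches to the element (largest E value 1e-10, word size 16 in the genome). The model copy needed frames of at least 1200 and 300 codons within 200 kb of an Olfr peak, and 700 bases were kept on either side. Stages were compared by exact permutation and Olfr with other peaks by exact sign flips over samples, adjusted over 15 tests. Functions were tested on simulated data. The tools were pysam 0.24.0, biopython 1.88, scipy 1.17.1, pandas 2.3.3, numpy 2.4.6, numba 0.67.0, matplotlib 3.10.9 and Python 3.11.15. Alternatives were limits on tags, score, FDR, distance, pseudogene symbols and repeated peaks, other gaps and stretch lengths, leaving out 1 replicate at a time, a replicate block, and, added after seeing the data, the L1-like peaks alone or left out. A typical Olfr peak of 8 to 13 tags carries a large counting error. Input samples have no list and were not analysed.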

Additional observations from a re-analysis of the deposited data

Results flagged for a closer look

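The column of all genes in range gave a further signal beyond the nearest gene. In 30 peaks an Olfr gene lay in range while another gene was nearest, 14 in OLP A, 4 in OLP B, 8 in iOL A and 4 in iOL B, and 10, 3, 6 and 1 of them were L1-like. These peaks were not counted as Olfr peaks above. They stood among the named peaks of other genes, and the densities by position took peaks whatever their name. They were raised because no comparison used the column of all genes in range to group peaks, and the lists have no control sample to set them against.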

How the results depend on the processing

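Of 124 recomputed values, 105 kept their direction, or for counts stayed within 1.5 times, 12 counts moved further and 7 differences changed sign. The smallest p-values that the exact tests allow are above 0.05, so no call could be gained or lost. Without OLP replicate A the stage difference in Olfr genes was -3.5, and without iOL replicate B it was -2.0, with a range of -3.5 to 44.5 over the 4 samples left out. The median tag difference was 0 without OLP replicate A, a value counted among the 105 although 0 has no direction. With a replicate block the differences were 20.5 genes (22 for A, 19 for B) and -1.11 percentage points (exact sign flips, p = 0.5 each, the smallest possible). The letters are not said to mark a shared batch. With at least 10 tags, mean Olfr genes were 95.5 in OLP and 86.0 in iOL and 29 genes were in all 4 samples. Within 15 kb before and 5 kb after the TSS these were 88.5, 76.5 and 23. Without peaks of over 50% repeated sequence they were 17.0, 10.5 and 0, the tag difference was -0.125 and the fold difference -0.128. Without L1-like peaks, tried after seeing the data, they were 36.0, 27.0 and 4, the stage difference in Olfr share 0.0333, the tag difference -0.5 and the difference in repeated peaks -0.0938. Other causes were not tested. Depth is limited to tags in peaks, and a peak not listed was not shown to be absent.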

Other observations

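Inside the 52 Olfr clusters, 129 peaks of the 4 lists had no gene name because no TSS lay in range, and 118 of them (91.5%) were L1-like. Over the genome, the share of peaks without a gene name that were L1-like was 70.0% in OLP A, 68.7% in OLP B, 72.8% in iOL A and 83.0% in iOL B.

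The element at 95% identity or more covered 3.73% of the listed range of Olfr starts, 3.86% of that of Vmn starts, 1.52% around other genes only and 2.15% of the genome. L1-like peaks of any identity were divided by the Mb of such sequence. This gave 180, 105, 155 and 105 in the Olfr range in OLP A, OLP B, iOL A and iOL B. The Vmn range gave 247, 139, 178 and 125, and the genome 150, 93, 128 and 82.8. The peaks were not limited to 95% identity, so these values are not densities of peaks within such sequence.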
